A study of Rattus norvegicus with 8 samples.

Results

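The kinases of the p38 MAPK cascade were followed in rat liver: the p38 kinases themselves (Mapk14, Mapk11, Mapk12 and Mapk13), the MAP2 kinases that activate them (Map2k3 and Map2k6) and the kinases that they activate in turn (Mapkapk2 and Mapkapk3). The genes were taken by name, with earlier results of these data known. Each of the 8 genes had 1 probe set with its symbol alone on the Affymetrix rat array, out of 14217 genes named in this way and 31042 probe sets in all. Livers came from Sprague-Dawley rats, all male and weighing 180 to 200 g, which were given both agents, dexamethasone alone, AICAR alone or the saline vehicle alone. Dexamethasone, a synthetic glucocorticoid, was injected into muscle at 1.5 mg/kg, AICAR, a nucleoside whose phosphorylated form activates the AMP-activated protein kinase (AMPK), was injected into the peritoneum at 0.7 g/kg, and the tissue was taken 8 h later. Each of the 4 groups held 2 arrays. Whether a group's 2 arrays stand for 2 animals is not stated in the labels; p-values therefore cover the spread between the arrays alone, which may be technical.

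p38 kinases are switched on when a MAP2 kinase phosphorylates them, and they are switched off by phosphatases such as those of the Dusp family. Upstream, MAP3 kinases receive signals of stress and inflammation, and downstream p38 passes phosphate to further kinases and to transcription factors. In liver the cascade is known for its part in gluconeogenic gene expression and in the stress response, and the series' title places it between AMPK and the glucocorticoid receptor. The arrays measured RNA, so a change in a kinase's transcript says nothing here of its phosphorylation or its activity. The question addressed was how the transcripts of the cascade stood after each agent and whether AICAR altered the response to dexamethasone.

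Values are the deposited log2 expression values, and a difference of 1 is a doubling. Arrays of 1 group correlated at 0.997 to 0.998 over all probe sets and arrays of different groups at 0.979 to 0.993. The lower quartile of an array lay between 3.84 and 3.89, and values under this range are near the dim end of the array. Of 10 hepatocyte markers 9 were measured, with array means between 13.65 and 13.73 in all groups, and albumin stood at 14.7 on every array. Single hepatocyte markers were called in both directions: after both agents, against vehicle, Cps1 (0.36) and Apoa1 (0.22) were higher and Hnf4a lower (-0.31), and after AICAR alone Apoa1 was lower (-0.38). The combination had Hnf4a lower than dexamethasone alone (-0.42), with an interaction of -0.50, and the part of hepatocyte RNA in the values of the kinase genes was not tested. The log2 difference between the 3′ and the 5′ probe sets of actin, a measure of RNA integrity, averaged 1.80 after both agents, 2.04 after dexamethasone, 1.82 after AICAR and 2.23 after vehicle. It differed between the groups, and its part in the results was not tested.

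Of the 8 kinase genes, 4 were called in at least 1 comparison. A call means an adjusted p under 0.05 in limma's moderated test over all 8 arrays, with Benjamini-Hochberg adjustment over the 31042 probe sets. After dexamethasone, against vehicle, Map2k6 rose and Mapk12 fell, so 2 of 8 members were called (25%) where 18.4% of all probe sets were. After AICAR alone none of the 8 was called by limma and none had an unadjusted p under 0.05, where 12.9% of all probe sets were called and 28.0% had an unadjusted p under 0.05. After both agents, against vehicle, Map2k6 rose and Mapk14 fell, which is 2 of 8 (25%) beside a background of 26.9%. Against dexamethasone alone, the combination had Map2k3 higher and Mapk14 lower, 2 of 8 (25%) beside 20.1%. Against AICAR alone, the combination had Map2k6 and Map2k3 higher and Mapk14 lower, 3 of 8 (37.5%) beside 30.8%. The interaction (the effect of dexamethasone beside AICAR less its effect without AICAR) was called for Map2k3, 1 of 8 (12.5%) beside 15.6%. Counted with 1 probe set per named gene the background was higher. It was 22.7% after dexamethasone, 15.2% after AICAR and 34.4% after both agents, each against vehicle. For the combination it was 25.4% against dexamethasone and 38.2% against AICAR, and for the interaction 20.0%. With 8 members 1 call is 12.5%, so no share, the 0 after AICAR among them, is read as a result about the members. The 4 members Mapk14, Mapk12, Map2k3 and Map2k6 were called in at least 1 comparison, and the other 4 in none.

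Median differences over the members were small. The median over the 8 members was 0.06 after dexamethasone, -0.04 after AICAR and -0.02 after both, each against vehicle, where the medians over all probe sets were 0.00, 0.01 and 0.01. Set against dexamethasone the combination had a median of -0.09, and set against AICAR one of -0.10, where the medians over all probe sets were -0.00 and -0.01. The comparisons share arrays, so their values are given side by side and are not independent of each other.

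**Figure D1:**
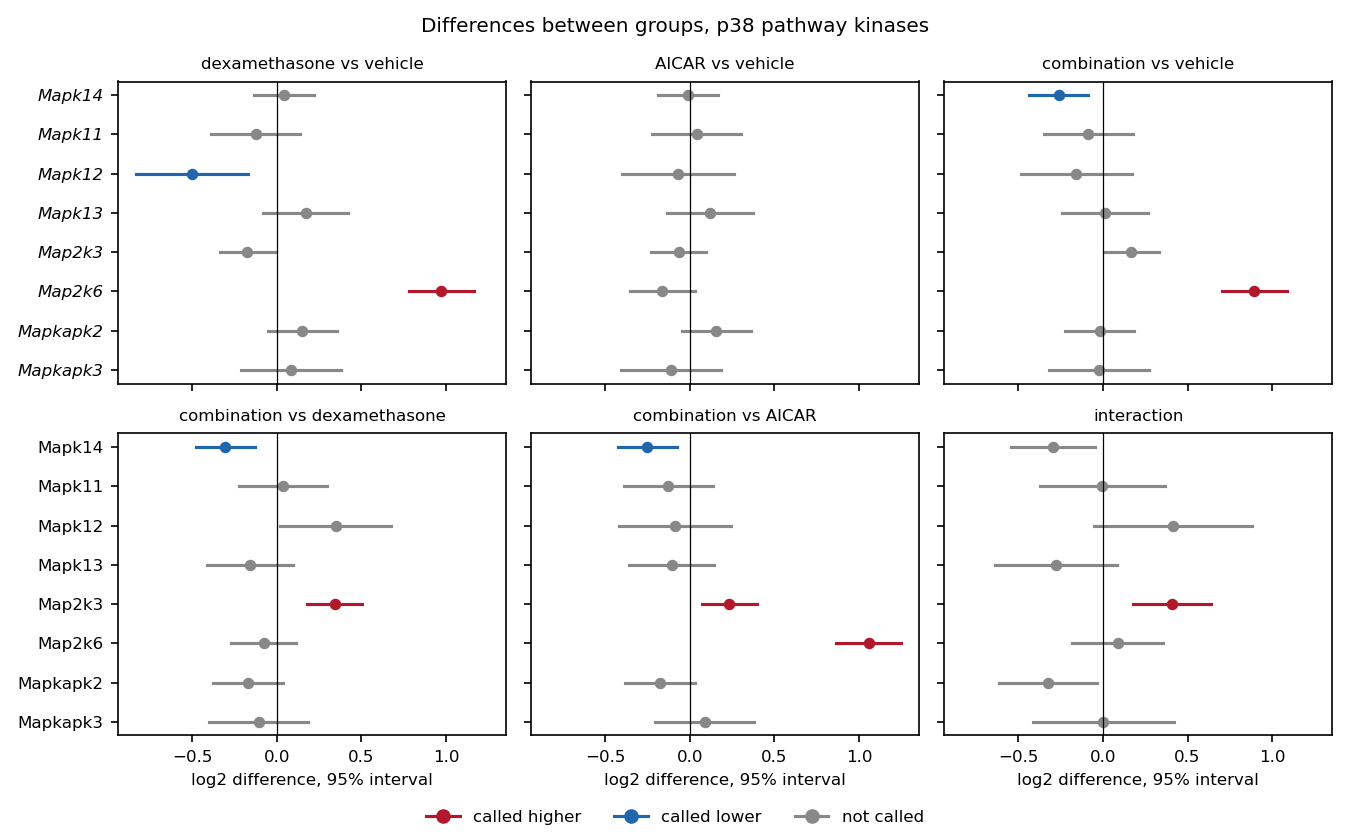
Log2 differences of the 8 kinase genes in the 6 comparisons, with 95% confidence intervals from the limma fit over 8 arrays; red points were called higher and blue points lower at an adjusted p under 0.05, and grey points were not called. Map2k6 lies about 1 log2 unit above 0 after dexamethasone with or without AICAR, while the intervals of all 8 genes include 0 after AICAR alone.

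Map2k6, which encodes the MAP2 kinase MKK6 that phosphorylates p38 kinases, varied more between the groups than any other member (F = 98.1 over the 4 groups, limma, adjusted p = 2.18e-05). Its promoter is shown beside that of Map2k3, which encodes the related activator MKK3, because these genes have the same role toward p38. Their calls were not the same, and the difference between the genes was not tested. The sequences are RefSeq's on the GRCr8 assembly, 5′ to 3′ on the plus strand, from 250 bases before to 50 bases after the annotated start of the gene. That of Map2k6 is chr10:95872497-95872796 and that of Map2k3 is chr10:46107389-46107688. Capitals mark matches to TTGCNNAA, a pattern like the binding site of C/EBP factors, which was chosen for display after the Map2k6 sequence had been seen.
Map2k6 promoter: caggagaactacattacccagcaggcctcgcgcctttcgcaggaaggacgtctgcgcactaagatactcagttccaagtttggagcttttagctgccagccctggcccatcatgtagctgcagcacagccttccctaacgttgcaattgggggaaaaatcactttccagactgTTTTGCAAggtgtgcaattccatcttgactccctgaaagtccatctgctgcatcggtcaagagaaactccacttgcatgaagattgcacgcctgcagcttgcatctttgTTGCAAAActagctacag
Map2k3 promoter: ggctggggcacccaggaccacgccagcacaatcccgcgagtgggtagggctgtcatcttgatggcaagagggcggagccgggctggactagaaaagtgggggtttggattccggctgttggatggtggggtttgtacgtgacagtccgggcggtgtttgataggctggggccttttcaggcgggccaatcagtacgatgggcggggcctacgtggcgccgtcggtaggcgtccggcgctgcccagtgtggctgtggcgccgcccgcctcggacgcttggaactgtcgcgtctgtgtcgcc

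The promoter windows of the 2 activator genes differed in base composition. The Map2k6 window had a GC content of 50.3% with 8 CpG dinucleotides, and the Map2k3 window had 66% with 27. Over 33469 rat promoters of the same length the median was 51.7% (quartiles 44.7% and 60.3%) with a median of 7 CpG. The windows of the other 6 members had GC contents between 62.7% and 81.3%, so Map2k6 was the member with the lowest.

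Next, 4 patterns were searched on both strands of these 300 bases. TTGCNNAA matched the Map2k6 window at 2 places, on the minus strand 77 bases before the start and on the plus strand 32 bases after it, and it matched no other member. This pattern was chosen after the Map2k6 sequence had been seen, so its match there was fixed by that choice. It is found in 10.6% of all promoters, so most windows hold no match. The glucocorticoid response palindrome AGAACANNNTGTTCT matched none of the 8 members and only 5 of all promoters (0.0149%). Its single arm AGAACA, which is contained in the palindrome, matched only Mapk14 among the members, at 1 place 55 bases before the start, and is found in 20.7% of all promoters. The cyclic AMP response element TGACGTCA matched none of the 8 members and 1.83% of all promoters. A match is a description of the letters in this window and no evidence of binding.

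After both agents the Map2k6 values were 6.66 and 6.67, after dexamethasone 6.66 and 6.83, after AICAR 5.65 and 5.56, and after vehicle 5.82 and 5.73. The 4 arrays with dexamethasone were all higher than the 4 without, and the sets of 4 lay far apart compared with the spread within a group. Map2k6 rose by 0.97 ± 0.08 (SE, n = 2 arrays each) after dexamethasone, 1.96-fold over vehicle (95% interval 0.78 to 1.16 on the log2 scale, limma, adjusted p = 9.52e-05). After both agents it rose by 0.89 ± 0.08 against vehicle, 1.86-fold (0.70 to 1.09, limma, adjusted p = 8.95e-05). Against AICAR alone, the combination was higher by 1.06 ± 0.08, 2.08-fold (0.87 to 1.25, limma, adjusted p = 3.39e-05). These 3 calls held under each of the 11 alternative settings tried, with the dexamethasone difference between 0.89 and 1.06.

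AICAR added no called difference to Map2k6. With AICAR alone the difference from vehicle was -0.16 ± 0.08 (95% interval -0.36 to 0.03, limma, adjusted p = 0.249). Between the combination and dexamethasone it was -0.08 ± 0.08 (-0.27 to 0.11, limma, adjusted p = 0.596). The interaction was 0.09 ± 0.12 (-0.19 to 0.36, limma, adjusted p = 0.688), so the dexamethasone effects with and without AICAR were not told apart, and a difference of up to 0.36 lies inside the interval.

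**Figure D2:**
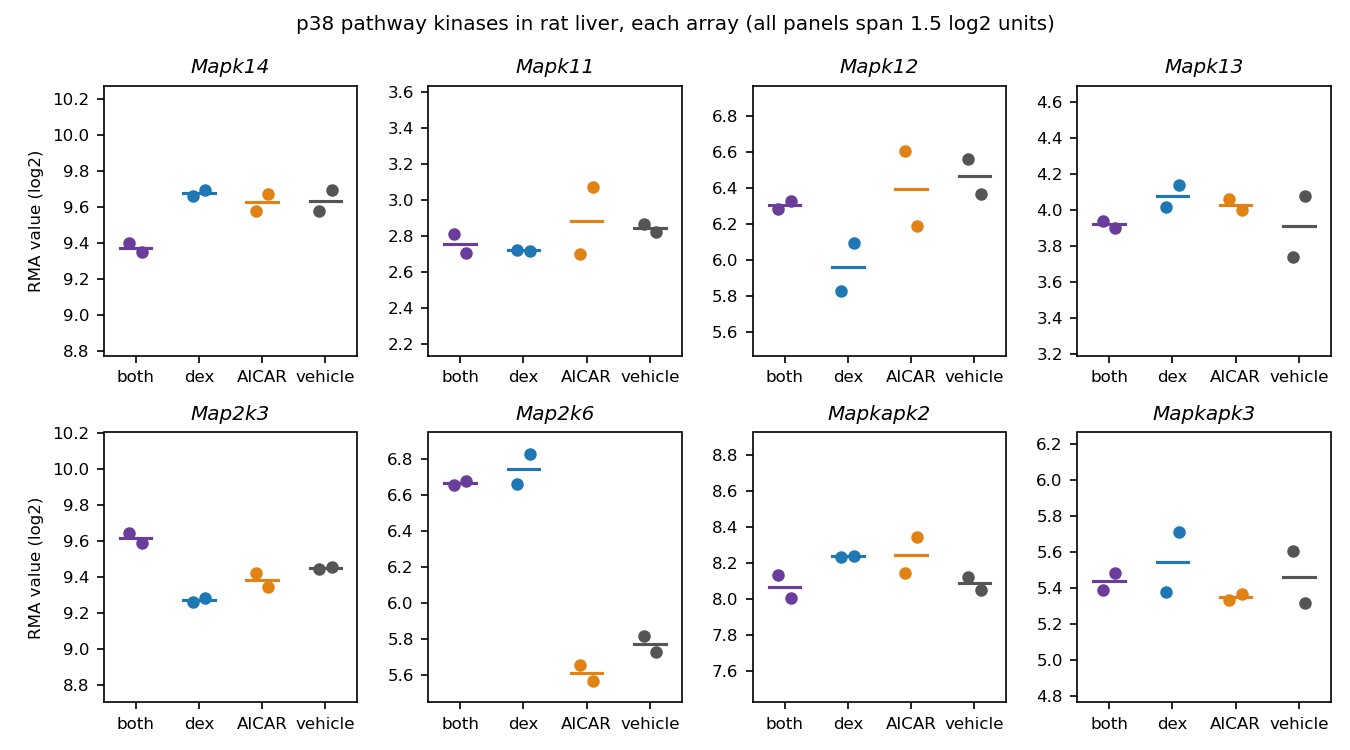
Log2 expression of the 8 kinase genes on each of the 8 arrays, in 1 panel per gene, with the groups from left to right given both agents (both), dexamethasone (dex), AICAR and vehicle; points are arrays and bars are means of 2. Map2k6 stands at 6.66 to 6.83 on the arrays with dexamethasone and at 5.56 to 5.82 on those without.

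The genes whose pattern over the 8 arrays was most like that of Map2k6 were listed as a description. Among 4198 genes whose group means ranged over at least 0.5, the highest Pearson correlations with Map2k6 were those of Mppe1 (0.995), Cidea (0.995), Mrpl33 (0.994), Itpr1 (0.993) and Uqcrh (0.993). Cidea, which encodes a lipid droplet protein, averaged 8.47 after both agents, 8.82 after dexamethasone, 5.86 after AICAR and 6.21 after vehicle. Itpr1, which encodes a calcium channel of the endoplasmic reticulum, averaged 8.07, 8.22, 6.95 and 7.15 in the same order of groups. Of the 4198 genes, 145 had a correlation over 0.95, so the pattern was not particular to Map2k6.

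Map2k3 differed in another way, with its highest values on the arrays given both agents. Its values were 9.64 and 9.59 after both agents, 9.26 and 9.28 after dexamethasone, 9.42 and 9.34 after AICAR, and 9.45 and 9.45 after vehicle. The combination arrays lay above the other 6 and the dexamethasone arrays below them. The combination was higher than dexamethasone alone by 0.34 ± 0.07, 1.27-fold (95% interval 0.18 to 0.50, limma, adjusted p = 0.00963), a call lost only without combination replicate 1 (0.0741 adjusted) among 11 alternatives. The combination was higher than AICAR alone by 0.23 ± 0.07, 1.18-fold (0.07 to 0.40, limma, adjusted p = 0.0356).

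The single agents and the combination gave no called difference from vehicle for Map2k3. The differences were -0.18 ± 0.07 after dexamethasone (limma, adjusted p = 0.133), -0.07 ± 0.07 after AICAR (adjusted p = 0.596) and 0.17 ± 0.07 after both agents (adjusted p = 0.125). The dexamethasone effect was 0.23 with AICAR and -0.18 without, and the interaction was 0.41 ± 0.10 (95% interval 0.18 to 0.64, limma, adjusted p = 0.0268). The interaction call was lost under 9 of 14 alternatives, including each of the 8 that left out an array (highest adjusted p 0.0991), and the call against AICAR alone under 6 of 11 (highest 0.197). The interaction values of Map2k6 (0.09 ± 0.12) and Map2k3 (0.41 ± 0.10) stand side by side, and the difference between the genes was not tested.

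Mapk14, which encodes p38 alpha, the p38 kinase found in most tissues, was lowest on the arrays with both agents. Its values there were 9.40 and 9.35, against 9.66 and 9.70 after dexamethasone, 9.58 and 9.67 after AICAR, and 9.58 and 9.69 after vehicle. The combination arrays lay below all other arrays, and the other 3 groups overlapped. After both agents Mapk14 fell by 0.26 ± 0.08 against vehicle, 1.20-fold lower (95% interval -0.44 to -0.09, limma, adjusted p = 0.0354). The combination was lower than dexamethasone alone by 1.23-fold (-0.30 ± 0.08, limma, adjusted p = 0.0243) and lower than AICAR alone by 1.19-fold (-0.25 ± 0.08, limma, adjusted p = 0.0369).

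Neither agent alone gave a called difference in Mapk14. After dexamethasone the difference from vehicle was 0.04 ± 0.08 (limma, adjusted p = 0.775) and after AICAR -0.01 ± 0.08 (limma, adjusted p = 0.954). The interaction was -0.29 ± 0.11 (limma, adjusted p = 0.112), so in the fit reported here a response to dexamethasone that depends on AICAR was not called for Mapk14. With a trended prior and after cyclic loess scaling more members had a called interaction, so this is said of the reported fit alone. Each of the 3 Mapk14 calls was lost under 4 of 11 alternatives. The call against vehicle was lost without vehicle replicate 2, without either combination array and when only the compared groups were fitted (highest adjusted p 0.183). The calls against dexamethasone and against AICAR were lost without any 1 of the 4 arrays compared (highest adjusted p 0.132 and 0.178).

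Markers of other liver cells differed between the groups. Some also differed after dexamethasone alone, where neither Mapk14 nor Map2k3 was called. Of 15 Kupffer cell and macrophage markers 12 were measured, and their array means were 5.10 to 5.13 after both agents, 7.66 to 7.80 after dexamethasone, 8.89 to 8.90 after AICAR and 8.73 to 8.74 after vehicle. Their summed log2 values were 61.2 to 61.6, 91.9 to 93.6, 106.7 to 106.8 and 104.8 to 104.8 in the same order. After both agents 11 of the 12 fell against vehicle and 1, Lyz2, rose, and 4 of the 12 had group means below 3.84. After dexamethasone alone 10 of the 12 were called lower than vehicle and 1 higher, with a median of -1.04. In that comparison Mapk14 differed by 0.04 and Map2k3 by -0.18, neither of them called. Among 14 lymphocyte markers 12 were measured, with array means of 4.48 to 4.52 after both agents, 4.68 to 4.73 after dexamethasone, 5.10 to 5.18 after AICAR and 5.17 to 5.24 after vehicle, and 8 fell after both agents against vehicle. Of 10 sinusoidal endothelial markers 7 were measured, with array means of 7.95 to 7.96 after both agents, 7.90 to 7.97 after dexamethasone, 8.33 to 8.36 after AICAR and 8.42 to 8.48 after vehicle. Neutrophil markers (5 of 7 measured) averaged 5.27 to 5.30 after both agents, 4.26 to 4.26 after dexamethasone, 5.15 to 5.22 after AICAR and 4.74 to 4.87 after vehicle. Stellate cell and fibroblast markers (10 of 10) averaged 6.97 to 7.01, 6.84 to 6.85, 7.18 to 7.19 and 6.62 to 6.69, cholangiocyte markers (5 of 6) 5.67 to 5.74, 5.43 to 5.61, 5.67 to 5.67 and 5.54 to 5.62, and erythroid markers (4 of 6) 8.18 to 8.21, 7.97 to 8.11, 8.53 to 8.56 and 8.64 to 8.67 in the same order of groups. The means join markers that differ. After both agents, against vehicle, 34.4% of all named genes were called (22.7% after dexamethasone). Beside this stand 100% of the Kupffer cell and macrophage, 66.7% of the lymphocyte, 60% of the neutrophil and 57.1% of the endothelial markers. The shares were 70% of the stellate cell and fibroblast, 20% of the cholangiocyte and 50% of the erythroid markers. No test of these lists as sets was made. After both agents, against vehicle, 3 neutrophil markers rose and 0 fell, while Cxcr2 (-0.09) and Camp (-0.25) were not called. Of the stellate cell and fibroblast markers 5 rose, among them Dcn (2.50), and 2 fell, among them Lrat (-2.15). In the same comparison 0 endothelial markers rose and 4 fell, 1 cholangiocyte marker rose and 0 fell, and 0 erythroid markers rose and 2 fell. Mapk14 and Map2k3 are transcribed in many cell types, and in whole liver fewer cells of a type and less RNA per cell cannot be told apart. The part of these cells in the values of the kinase genes was not tested.

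Mapk12, which encodes p38 gamma, a form best known from muscle, was lowest after dexamethasone alone. Its values were 6.28 and 6.33 after both agents, 5.83 and 6.09 after dexamethasone, 6.60 and 6.19 after AICAR, and 6.56 and 6.36 after vehicle. Both dexamethasone arrays lay below the other 6, but the spread within a group was wide, with an SD of 0.29 after AICAR. Mapk12 fell by 0.50 ± 0.15 after dexamethasone, 1.42-fold lower than vehicle (95% interval -0.83 to -0.17, limma, adjusted p = 0.0432). The call was lost under 7 of 11 alternatives (highest adjusted p 0.213), among them without any 1 of the 4 arrays compared, where the difference ranged between -0.64 and -0.37. After both agents the difference from vehicle was -0.16 ± 0.15 (limma, adjusted p = 0.495) and from dexamethasone alone 0.35 ± 0.15 (limma, adjusted p = 0.139). The interaction for Mapk12 was 0.42 ± 0.21 (limma, adjusted p = 0.223).

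Mapk11 and Mapk13, which encode p38 beta and p38 delta, gave dim signals with no called difference. Mapk11 read 2.81 and 2.70 after both agents, 2.72 and 2.72 after dexamethasone, 2.70 and 3.07 after AICAR, and 2.86 and 2.82 after vehicle. All 8 Mapk11 values lay below 3.84, so the array gave little measure of the gene. Mapk13 read 3.94 and 3.90 after both agents, 4.02 and 4.14 after dexamethasone, 4.06 and 4.0 after AICAR, and 3.74 and 4.08 after vehicle. The Mapk13 arrays with both agents lay below those with either agent alone, by less than passed the test, and overlapped the vehicle arrays. Its values lay close to the lower quartile of the arrays. The adjusted p-values of limma ran over the 6 comparisons between 0.456 and 0.993 for Mapk11 and between 0.288 and 0.953 for Mapk13. In the RefSeq annotation Mapk11 and Mapk12 are neighbours on chromosome 7 with 0 genes between them, and Mapk14 and Mapk13 lie on chromosome 20 with 1 gene between them. Mapk12 and Mapk14 were called in at least 1 comparison. Whether neighbours share calls cannot be judged, because the signals of Mapk11 and Mapk13 were dim.

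Mapkapk2 and Mapkapk3 encode the kinases MK2 and MK3, which p38 activates and which act on RNA-binding and heat shock proteins, and neither was called in any comparison. Mapkapk2 had values of 8.13 and 8.01 after both agents, 8.23 and 8.24 after dexamethasone, 8.14 and 8.35 after AICAR, and 8.12 and 8.05 after vehicle. The single agents lay slightly higher than vehicle for this gene, by 0.15 ± 0.09 after dexamethasone (limma, adjusted p = 0.312) and 0.16 ± 0.09 after AICAR (adjusted p = 0.301), differences that did not pass the test. After both agents the Mapkapk2 difference from vehicle was -0.02 ± 0.09 (adjusted p = 0.910), and the interaction was -0.33 ± 0.13 (adjusted p = 0.129). The Mapkapk2 interaction passed the threshold with a trended prior (adjusted p = 0.0267) and after cyclic loess scaling (-0.44, adjusted p = 0.0435). Mapkapk3 had values of 5.39 and 5.48 after both agents, 5.38 and 5.71 after dexamethasone, 5.33 and 5.37 after AICAR, and 5.61 and 5.31 after vehicle. The combination arrays lay just above the AICAR arrays for Mapkapk3 and overlapped the dexamethasone and vehicle arrays, and limma's adjusted p-values lay between 0.632 and 0.994.

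AICAR given alone left no called difference in the RNA of any of the 8 kinases, where 12.9% of all probe sets were called. The 95% intervals of the 8 differences from vehicle ran between -0.40 and 0.37 at their outer ends.

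The other genes of the pathway were counted from lists of upstream kinases and adaptors, phosphatases, further substrate kinases, substrate proteins and the kinases of the parallel ERK and JNK modules. Of 80 listed genes 68 were measured, each by its probe set with the highest mean. Counted per gene, dexamethasone against vehicle gave 11 higher and 9 lower (29.4% called), beside 22.7% of all 14217 genes. AICAR against vehicle gave 5 higher and 8 lower (19.1%), beside 15.2%. The combination against vehicle gave 15 higher and 17 lower (47.1%), beside 34.4%. The combination against dexamethasone gave 7 higher and 12 lower (27.9%), beside 25.4%. The combination against AICAR gave 17 higher and 19 lower (52.9%), beside 38.2%. The interaction was called for 8 genes upward and 10 downward (26.5%), beside 20.0%. In each comparison there were calls in both directions, and the median over the 68 genes lay between -0.04 and -0.00. The shares of all 14217 genes given here are also the background for the counts of each single list below. No test of the lists as sets was made.

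**Figure D3:**
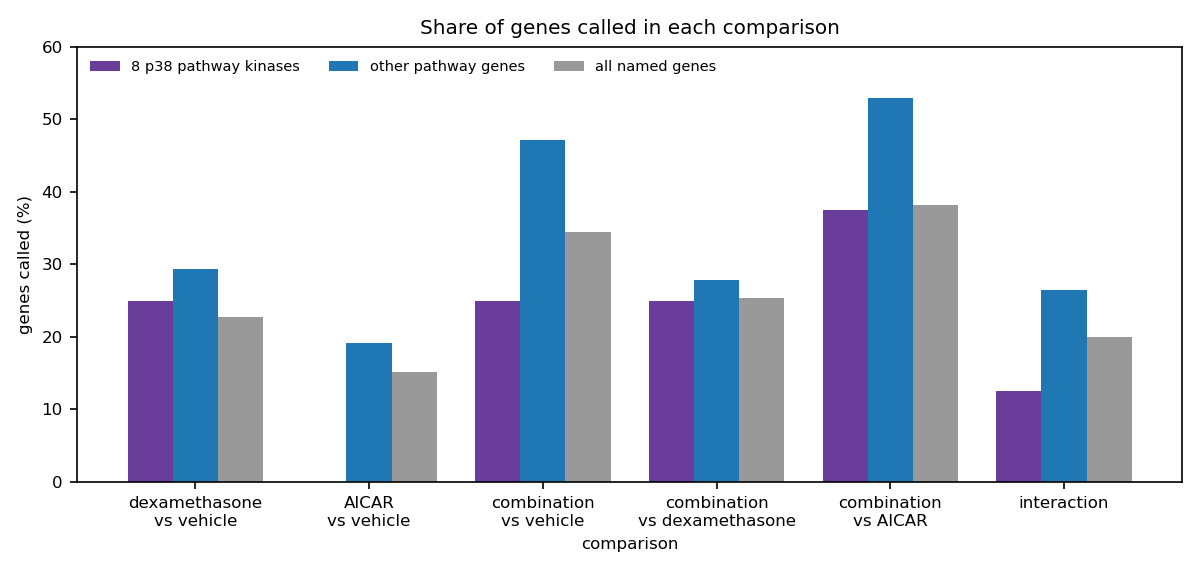
Share of probe sets or genes called (percent, axis from 0) in each of the 6 comparisons, for the 8 kinase genes, for the 68 other measured genes of the pathway and for all 14217 named genes. The share for the other pathway genes is highest for the combination against AICAR (52.9%) and lowest for AICAR against vehicle (19.1%).

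Among 27 upstream MAP3 kinases and adaptors 25 were measured, and after both agents 7 rose and 4 fell against vehicle. Gadd45a, which encodes a stress-induced protein that binds the MAP3 kinase MEKK4, had values of 7.78 and 7.84 after both agents, 6.80 and 6.90 after dexamethasone, 6.88 and 7.0 after AICAR, and 6.85 and 6.78 after vehicle. It stood apart on the combination arrays alone. Gadd45a rose by 0.99 ± 0.08 after both agents against vehicle (limma, adjusted p = 3.60e-05), with an interaction of 0.83 ± 0.11 (adjusted p = 0.0018), while after dexamethasone the difference was 0.03 and after AICAR 0.13. Map3k1, which encodes the MAP3 kinase MEKK1, was lower in all treated groups: 7.72 and 7.64 after both agents, 7.72 and 7.79 after dexamethasone, 7.80 and 7.85 after AICAR, and 8.65 and 8.70 after vehicle. Its differences from vehicle were -1.0 after both agents, -0.92 after dexamethasone and -0.86 after AICAR (each ± 0.07, all called). A second Map3k1 probe set was also lower after dexamethasone (-0.80) and both agents (-0.81) but not called after AICAR (-0.15, adjusted p = 0.314). The brightest Map3k20 probe set, of the stress kinase ZAK, fell by 0.54 after AICAR, and its other probe sets gave -0.42 and -0.03. Traf6, which encodes an adaptor of inflammatory receptors, differed by 0.33 after dexamethasone on its brightest probe set, a call lost without vehicle replicate 2 or dexamethasone replicate 1 (highest adjusted p 0.0839), and by 0.21 to 0.84 on its other 3.

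Of 14 phosphatases that act on MAP kinases 13 were measured. After dexamethasone 3 rose and 2 fell, after AICAR 2 rose and 2 fell, and after both agents 3 rose and 3 fell. Dusp1, which encodes a nuclear phosphatase that removes phosphate from p38 and is a known glucocorticoid target, had values of 9.94 and 9.96 after both agents, 11.03 and 11.07 after dexamethasone, 9.95 and 10.04 after AICAR, and 9.50 and 9.58 after vehicle. On this probe set the dexamethasone arrays were far above the rest, and the combination arrays lay near the AICAR arrays. Dusp1 rose by 1.51 ± 0.07 after dexamethasone (limma, adjusted p = 3.47e-06) and by 0.41 ± 0.07 after both agents against vehicle (adjusted p = 0.00329). The interaction was -1.56 ± 0.10 (adjusted p = 4.13e-05), and a second Dusp1 probe set gave -2.22. That probe set differed from the first in its order of groups, with differences from vehicle of 0.81 after both agents, 1.57 after dexamethasone and 1.46 after AICAR, and with the combination lower than AICAR alone (-0.65, limma, adjusted p = 0.00103). Dusp7, which encodes a cytoplasmic phosphatase with a preference for ERK, had values of 7.03 and 7.07 after both agents, 6.25 and 6.27 after dexamethasone, 6.40 and 6.29 after AICAR, and 6.79 and 6.72 after vehicle. It fell after either agent alone and was highest after both, with an interaction of 1.20 ± 0.11 (limma, adjusted p = 0.000199). The Dusp7 call after AICAR was lost without vehicle replicate 1 or AICAR replicate 2 (highest adjusted p 0.0664). Ptprr rose by 0.64 ± 0.11 after dexamethasone and by 0.98 ± 0.11 after both agents, and Ppm1a fell by 0.50 after dexamethasone and by 0.46 after both agents, each against vehicle.

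All 5 further substrate kinases were measured. After dexamethasone 1 rose and 0 fell, after AICAR 0 changed, and after both agents 0 rose and 3 fell. Mknk2, which encodes a kinase of the translation factor eIF4E, had values of 7.38 and 7.34 after both agents, 8.55 and 8.53 after dexamethasone, 7.87 and 7.87 after AICAR, and 7.70 and 7.65 after vehicle. It was highest after dexamethasone alone and lowest after both agents. Mknk2 rose by 0.87 ± 0.07 after dexamethasone (limma, adjusted p = 5.71e-05), and the combination was lower than dexamethasone alone by -1.19 ± 0.07 on the log2 scale (adjusted p = 1.00e-05). Rps6ka5, which encodes the kinase MSK1, fell by 0.60 after both agents against vehicle and Rps6ka4, which encodes MSK2, by 0.31, while Mapkapk5 was called in no comparison. The Rps6ka5 call was lost without vehicle replicate 1 or either combination array (highest adjusted p 0.112), that of Rps6ka4 without vehicle replicate 2 or combination replicate 2 (0.203). The Rps6ka4 call was also lost when only the groups compared were fitted and when its 3 probe sets were averaged (-0.18), and the other probe sets gave -0.18 (adjusted p = 0.374) and -0.03 (adjusted p = 0.832).

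Of 20 substrate proteins, mainly transcription factors, 18 were measured. After dexamethasone 4 rose and 4 fell, after AICAR 1 rose and 4 fell, and after both agents 4 rose and 5 fell. Nr3c1, which encodes the glucocorticoid receptor, had values of 9.08 and 9.05 after both agents, 10.12 and 9.92 after dexamethasone, 9.84 and 9.91 after AICAR, and 10.38 and 10.27 after vehicle. The combination arrays were the lowest by a wide margin. Nr3c1 fell by 1.26 ± 0.09 after both agents against vehicle (limma, adjusted p = 1.67e-05), and the second Nr3c1 probe set fell by 0.48. After dexamethasone alone the difference was -0.31 ± 0.09 (limma, adjusted p = 0.043), and the second probe set gave 0.16. That call was lost under 7 of 11 alternatives, among them without either vehicle array or dexamethasone replicate 2 (highest adjusted p 0.525). Hspb1, which encodes a heat shock protein phosphorylated by MK2, had values of 8.43 and 8.29 after both agents, 7.40 and 7.47 after dexamethasone, 8.09 and 7.98 after AICAR, and 7.08 and 7.09 after vehicle. Hspb1 rose by 1.28 ± 0.08 after both agents, by 0.35 ± 0.08 after dexamethasone and by 0.95 ± 0.08 after AICAR, each against vehicle, and the interaction was -0.02 ± 0.12 (limma, adjusted p = 0.922). The Hspb1 call after dexamethasone was lost without either vehicle array or without dexamethasone replicate 2 (highest adjusted p 0.0845). Cebpb, which encodes a C/EBP factor of liver, rose by 0.91 ± 0.07 after dexamethasone and by 0.34 ± 0.07 after both agents, with an interaction of -0.57 ± 0.10 (limma, adjusted p = 0.00786). The Cebpb call after both agents was lost without combination replicate 1 (adjusted p = 0.080). The highest Elavl1 probe set fell by 1.15 after AICAR, and a second Elavl1 probe set fell by 0.45 (limma, adjusted p = 0.0067). The dimmest Elavl1 probe set gave 0.23, which was not called (limma, adjusted p = 0.137). The probe sets did not all go the same way, so no direction is given for this gene.

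The ERK and JNK modules were measured for 7 of 14 genes, so they are covered only in part. By the brightest probe set of each gene, after both agents 1 rose and 2 fell against vehicle, after dexamethasone 0 rose and 1 fell, and after AICAR 0 were called. Mapk9, which encodes the kinase JNK2, had values of 6.34 and 6.24 after both agents, 6.73 and 6.85 after dexamethasone, 7.64 and 7.54 after AICAR, and 7.40 and 7.44 after vehicle. It fell by 0.64 ± 0.08 after dexamethasone and by 1.13 ± 0.08 after both agents (limma, adjusted p = 0.000834 and 1.83e-05), with an interaction of -0.66 ± 0.11 (adjusted p = 0.00582). A second Mapk9 probe set was also lower after dexamethasone (-0.45) and after both agents (-0.80). After AICAR this second probe set was called higher (0.35, limma, adjusted p = 0.0191), where the first gave 0.17 (adjusted p = 0.216). Map2k1, which encodes the ERK activator MEK1, rose by 0.28 after both agents against vehicle and Araf, which encodes a RAF kinase, fell by 0.29 on its brightest probe set. A second Araf probe set gave -0.12 in this comparison (limma, adjusted p = 0.556). Map2k2, which encodes MEK2, had no called difference from vehicle. The Map2k1 call was lost without any 1 of the 4 arrays compared, that of Araf without vehicle replicate 2 or either combination array. The Araf call was also lost when only the groups compared were fitted and after centring on brighter probe sets.

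**Figure D4:**
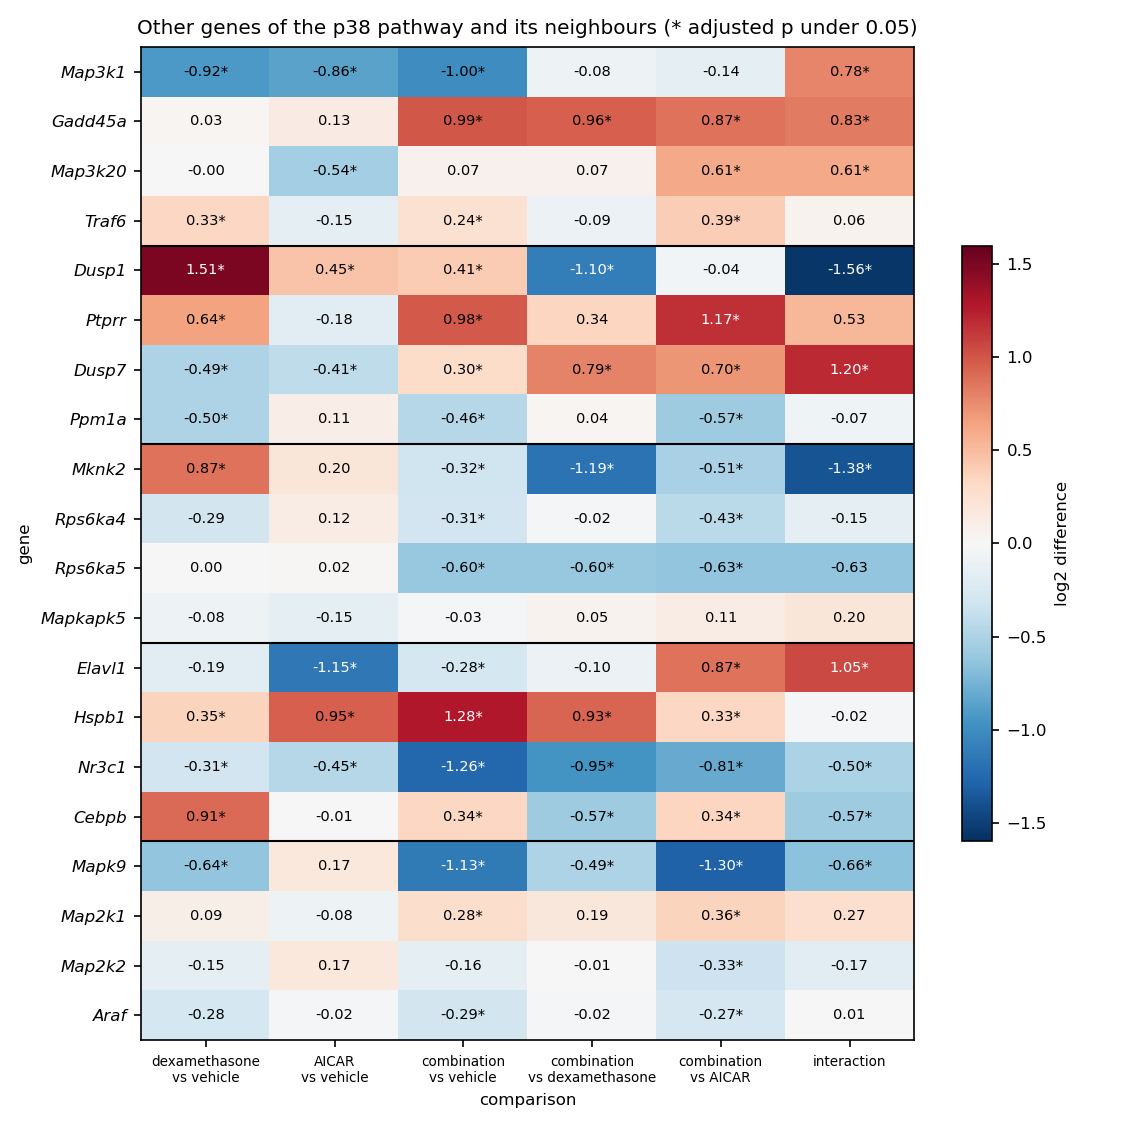
Log2 differences of the named genes from the other pathway lists (rows, lists parted by lines) in the 6 comparisons (columns), in colour from lower (blue) to higher (red) with the value printed and a star where the adjusted p was under 0.05. Dusp1 lies at 1.51 after dexamethasone and at 0.41 after both agents, and Nr3c1 lies at -1.26 after both agents.

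Of 71 called differences of these named pathway genes, 48 were called under every alternative, among them those of Dusp1, Gadd45a and Mapk9; so were those of Map3k1, Ptprr and Ppm1a. Set beside them, the member with the widest response, Map2k6 (0.97 after dexamethasone and 0.89 after both agents, each against vehicle), had no called interaction, while Dusp1 (1.51 and 0.41), Mknk2 (0.87 and -0.32) and Cebpb (0.91 and 0.34) had negative called interactions. Ptprr (0.64 and 0.98) and Hspb1 (0.35 and 1.28) were also higher after dexamethasone and after both agents with no called interaction, so its absence was not particular to Map2k6. Dusp1, Mknk2 and Cebpb are set beside Map2k6 because their interactions were called, so the contrast follows from that choice. The Map2k6 interaction interval was -0.19 to 0.36, and the difference between the genes was not tested.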

How the data were processed

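Liver RNA of 8 samples was labelled with biotin as cRNA and read on an Affymetrix rat array, as the labels' protocols state. The authors deposited 1 log2 value per probe set and array, and the submitters' processing notes name RMA and affy for this step, with versions not given in the sources used here. This method sets the arrays to 1 common distribution and compresses changes of dim probe sets. The base of the logarithm was read from the range of the deposited values, 1.96 to 14.7. The number of arrays limits the precision, and no detection call was used here.

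After 57 array controls were left out, 31042 probe sets were tested in limma 3.58.1 (R 4.3.3). The model had a mean for each group and used all 8 arrays. Variances were moderated by empirical Bayes (residual df 4, prior df 4.58), and p-values were adjusted by Benjamini-Hochberg over all probe sets. Names came from the platform annotation, updated by gene ID through a RefSeq table of the GRCr8 assembly. Of the tested probe sets, 20826 carried 1 symbol, 436 several and 9780 none here, and 20758 of those with 1 symbol matched the table by gene ID. With 2 arrays against 2, the smallest two-sided p of an exact permutation test is 0.333, so none was run. The code was tested on simulated data for dexamethasone against vehicle.

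The kinases and the lists of other genes and of cell markers were chosen with earlier results of these data known. All 8 kinases are named in every comparison. From each other pathway list up to 4 genes are named, those with the smallest p over the 4 groups, and for the kinase with the largest F statistic the 5 genes most correlated with it over the arrays. Hepatocyte, Kupffer cell and macrophage, lymphocyte, neutrophil, endothelial, stellate cell, cholangiocyte and erythroid markers were measured beside them. The alternatives tried were cyclic loess scaling, centring on brighter probe sets, a replicate block, leaving out each array, averaging the probe sets of a gene, dropping dim probe sets, fitting only the compared groups, and a robust prior with a trend.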

Additional observations from a re-analysis of the deposited data

Results flagged for a closer look

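The response of Map2k3 to dexamethasone differed between livers with and without AICAR. The dexamethasone effect was 0.23 on the log2 scale with AICAR and -0.18 without, and the difference between these effects was 0.41 ± 0.10 (SE, 2 arrays per group, limma, adjusted p = 0.0268). The call was lost without any 1 of the 8 arrays (highest adjusted p 0.0991) and after cyclic loess scaling (0.29, adjusted p = 0.0902).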

How the results depend on the processing

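The Map2k6 calls held under each of the 11 alternatives, and no called difference of a kinase gene changed sign under any alternative tried. Calls of the kinases after dexamethasone were 2, and 1 under the replicate block, cyclic loess, centring or without an array (1 to 1). For the combination against vehicle they were 2, 1 when only the groups compared were fitted and 1 to 2 without an array. For the combination against dexamethasone they were 2, and 0 to 1 without an array; against AICAR 3, and 1 to 1. The interaction gave 1, 3 with a trended prior, 2 after cyclic loess and 0 to 0 without an array. After AICAR alone the count was 0 under every alternative. The cause was not tested. The labels name no pairing of the samples by replicate number. The correlation of same-numbered deviations ran from -0.0418 to 0.160, and only 1 of 6 pairs of groups was over 0.1. With 2 arrays per group these values cannot exclude a pairing.

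Uncalled differences near 0 changed sign. After cyclic loess, AICAR gave 0.058 for Mapk14 and 0.0020 for Map2k3, and the Mapk11 interaction was 0.047. After centring, Mapk14 stood at 0.033 after AICAR, Mapkapk2 at 0.014 and Mapkapk3 at 0.0094 after both agents, and the Mapkapk3 interaction at -0.053. Without an array, dexamethasone against vehicle ran from -0.014 to 0.10 for Mapk14, -0.00026 to 0.34 for Mapk13 and -0.084 to 0.25 for Mapkapk3. AICAR against vehicle ran from -0.066 to 0.046 for Mapk14, -0.15 to 0.23 for Mapk11, -0.28 to 0.14 for Mapk12, -0.049 to 0.29 for Mapk13 and -0.26 to 0.035 for Mapkapk3. The combination against vehicle ran from -0.16 to 0.18 for Mapk13, -0.082 to 0.044 for Mapkapk2 and -0.17 to 0.12 for Mapkapk3. Against dexamethasone it ran from -0.017 to 0.090 for Mapk11, -0.16 to 0.0074 for Map2k6 and -0.28 to 0.060 for Mapkapk3, and against AICAR from -0.31 to 0.059 for Mapk11 and -0.30 to 0.12 for Mapk12. The interaction ran from -0.19 to 0.18 for Mapk11 and -0.17 to 0.17 for Mapkapk3.

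Over all probe sets, AICAR alone gave 4011 calls, 2345 when only the groups compared were fitted, 6048 with a trended prior and 1447 to 1989 without an array. Without an array the counts fell at the lowest to 3738 of 5726 after dexamethasone, 3698 of 6233 for the combination against dexamethasone and 2910 of 4858 for the interaction. Alternatives for the named pathway genes were added after seeing the data. No detection calls were used, so dim genes such as Mapk11 are limited by signal over background, and 2 arrays per group limit the precision of every difference.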
